A study of Saccharomyces cerevisiae with 12 samples.

Results

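The genes described are the 33 proteasome subunit genes of Saccharomyces cerevisiae, taken as a fixed set of names. They are 14 genes of the core particle (PRE1 to PRE10, PUP1 to PUP3 and SCL1), 6 ATPase genes (RPT1 to RPT6) and 13 RPN genes. Among the RPN genes, RPN14 encodes an assembly factor, and the others encode subunits of the regulatory particle. The set is 33 of the 6002 protein-coding nuclear genes with a strand in the gene table used. Each was followed from 600 bp before its start codon to its stop codon on sacCer3. The assay was MNase-seq, in which chromatin is digested with micrococcal nuclease and the DNA that nucleosomes protect is sequenced, in strain BY4741 growing in YPD at mid-log phase. The 12 samples made 6 groups of 2 biological replicates. Wild type was sampled as 3 groups (WT1, WT2 and WT3). The other 3 groups carried changes in Ioc3. Ioc3-KO is its knockout, and Ioc3-R739E/R742E, like Ioc3-Q251K/D252K, is a mutant named by its amino acid substitutions. Whether a genotype rests on 1 clone is not given in the sources used here.

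Ioc3 is the partner of the ATPase Isw1 in ISW1a, a remodeler that slides and spaces nucleosomes, and the series asks how nucleosomes shift when Ioc3 is lost or altered. The proteasome degrades proteins tagged with ubiquitin. Its core particle is a stack of rings of alpha and beta subunits, and proteolysis takes place inside the beta rings. The regulatory particle has a base, whose ATPase ring unfolds substrates, and a lid, whose subunit Rpn11 removes ubiquitin. In yeast the transcription factor Rpn4 drives these genes together through a shared promoter element, and Rpn4 is itself degraded by the proteasome.

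The authors deposited 1 list of called nucleosomes for each group, with both replicates pooled. Wild-type values therefore have n = 3 lists, each Ioc3 genotype has 1 list, and every genotype is compared with the same 3 wild-type lists. The p-values for a single genotype measure the spread between the wild-type lists only. The lists held 76013 to 77652 nucleosomes and 10282804 to 10350515 assigned reads, and the median nucleosome had 133 to 139 reads. The regions of the 33 genes held 354, 352 and 352 of these in wild type, 351 in Ioc3-KO, 350 in Ioc3-R739E/R742E and 351 in Ioc3-Q251K/D252K. The IOC3 coding region carried 2392, 2426 and 2570 reads in wild type, 825 in Ioc3-KO, 2355 in Ioc3-R739E/R742E and 2228 in Ioc3-Q251K/D252K, so the knockout list is low at the gene named by its label. Of the whole genome, 5 neighbouring windows on chromosome IV (880000 to 979999) were raised in Ioc3-Q251K/D252K by 0.67 to 0.87 on the log2 scale, and 0 proteasome genes lie there.

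Each proteasome gene had a depleted region near its start codon when weak calls were left out. The summits of all lists were joined into consensus nucleosomes, and 347 of these fell in the 33 regions, of which 322 (92.8%) had a matching summit in every list. When consensus nucleosomes under 25% of the median peak height were left out, all 33 genes had a depleted region, against 84.0% of all genes. This depleted region was the widest gap of at least 200 bp near the start codon. Only the widest was taken per gene, and any other gap was not counted. With every call kept, 10 of 33 members had such a gap, beside 35.0% of all genes. A gap of at least 150 bp was then found in 32 of 33 members and 98.5% of all genes. The nucleosomes beside the depleted region are numbered -1 (upstream) and +1 (downstream), with +2 to +5 following into the gene. With weak calls left out, its width, from the summit of -1 to that of +1, had a median of 281, 278 and 279 bp over the members in WT1, WT2 and WT3. Over 4972 genes the medians were 273, 273 and 274 bp. In 27 of 33 genes the wild-type mean was between 240 and 320 bp, and in 5 it was over 350 bp.

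**Figure D1:**
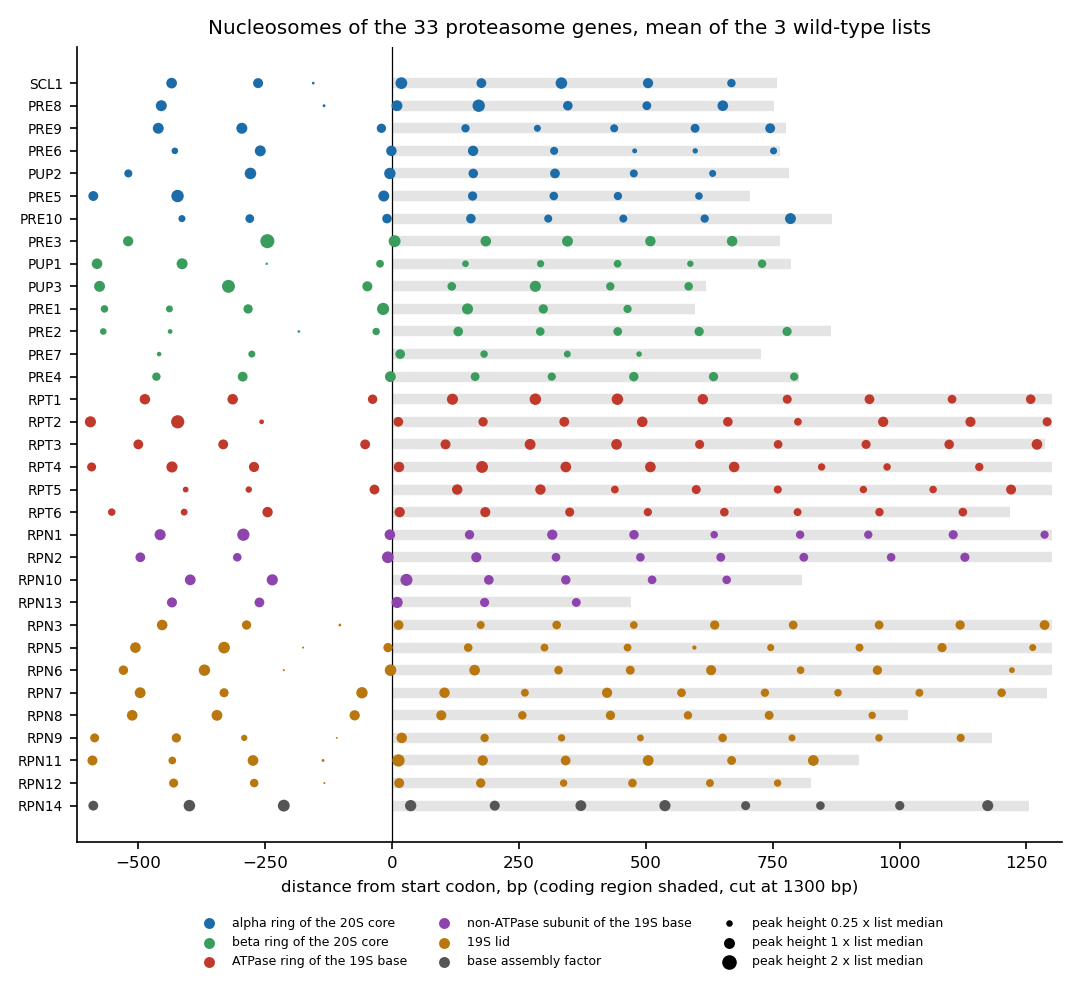
Nucleosomes of the 33 genes in wild type, by distance from the start codon in bp (x axis), with 1 row per gene in the colour of its place in the proteasome. Dot area is in proportion to the mean peak height of the 3 wild-type lists over the list median, the shading is the coding region as far as it is drawn, and only nucleosomes matched in every list are drawn. An empty or weakly filled stretch stands before nearly every start codon, and PRE8, PRE5, PRE2, PUP1 and RPN6 show the widest.

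The widest depleted regions belonged to the core particle. PRE8, an alpha subunit gene, had 467, 464 and 462 bp in wild type, 471 bp in Ioc3-KO, 469 bp in Ioc3-R739E/R742E and 464 bp in Ioc3-Q251K/D252K. PRE5, also an alpha subunit gene, had 409, 403 and 407 bp in wild type and 408, 407 and 407 bp in the Ioc3 lists in the same order. PRE2, which encodes the subunit with chymotrypsin-like activity, had 418, 415 and 385 bp in wild type and 402, 409 and 418 bp in the Ioc3 lists. In PRE8 and PRE5 the -1 nucleosome lay inside the coding region of the upstream neighbour, as it did in 10 of the 33 genes. The narrowest regions were those of RPT5, RPN14 and PRE6, at 247.7 ± 0.58, 250 ± 4.0 and 258.3 ± 1.53 bp (SD, n = 3 wild-type lists). RPT5 encodes an ATPase of the base, and Rpn14 helps to assemble the base. In 21 of the 33 genes the upstream neighbour is transcribed away from the member, so that both share the intergenic region. The width passed the test in no member and in no comparison (limma, adjusted p under 0.05, here meaning called). Over 4972 genes 0.0% were called for each single genotype and 0.181% for all Ioc3 lists together. At an unadjusted p under 0.05 there were 0 members in Ioc3-KO, 4 in Ioc3-R739E/R742E, 1 in Ioc3-Q251K/D252K and 1 with all Ioc3 lists, beside 8.91%, 9.47%, 7.38% and 12.3% of all genes.

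The +1 nucleosome sat at the start codon itself. Its median summit was -4, -4 and -5 bp from the start codon in wild type, -5 bp in Ioc3-KO, -5 bp in Ioc3-R739E/R742E and -6 bp in Ioc3-Q251K/D252K. Over 5015 genes the medians were -13 to -11 bp. PRE3, the gene of the subunit with caspase-like activity, was set apart, because its widest gap lay between nucleosomes further upstream and put +1 at -245, -245 and -247 bp in wild type. Another nucleosome followed near its start codon, beyond the step allowed for +2, and PRE3 therefore has no +2 to +5 below.

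Inside the coding regions, nucleosomes stood closer together than the median of all genes, and the +3 was lower than the median +3 of all genes. The mean distance between neighbouring summits had a median over 31 members of 158.3, 159.3 and 158.0 bp in wild type, against 163.9, 164.0 and 163.9 bp over 4897 genes. Of the 31 members, 27, 26 and 27 lay under the all-gene median in WT1, WT2 and WT3. The extremes were PUP1, the gene of the subunit with trypsin-like activity, at 146.1 ± 1.67 bp and RPN6, a lid subunit gene, at 176.4 ± 0.35 bp (SD, n = 3). At +3 the peak height, in multiples of the list's median, had a member median of 1.00, 1.06 and 1.06 in wild type, against 1.25, 1.26 and 1.25 over 4593 genes. In WT1, WT2 and WT3, 22, 23 and 22 of 32 members were under the all-gene value. These differences were present alike in the Ioc3 lists, where the +3 medians were 0.95, 1.02 and 1.00 for the members and 1.28, 1.25 and 1.25 for all genes.

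Weak calls were scattered through the depleted regions. A call stood between -1 and +1 in 24, 23 and 28 members in WT1, WT2 and WT3, in 23 in Ioc3-KO, in 21 in Ioc3-R739E/R742E and in 24 in Ioc3-Q251K/D252K. Together these calls held 367, 309 and 468 reads in wild type, and 397, 400 and 419 reads in the Ioc3 lists. The 3 Ioc3 values fall within the range of wild type.

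Against this landscape, single nucleosomes of the proteasome genes seldom changed with Ioc3. Of the 322 nucleosomes tested, 2 were called for position in Ioc3-KO (limma over 67654 nucleosomes, of which 1.28% were called). At an unadjusted p under 0.05 there were 44 members (13.7%), beside 18.2% over all nucleosomes. In Ioc3-R739E/R742E and Ioc3-Q251K/D252K, 0 members were called (0.0% over all nucleosomes). There were 30 and 20 at an unadjusted p under 0.05 (9.32% and 6.21%, beside 8.6% and 8.84%). With all 3 Ioc3 lists as 1 group, 0 members were called against 0.185%, and 33 had an unadjusted p under 0.05 (10.2%, beside 12.1%). In 52 of the 322 all 3 Ioc3 lists lay outside the wild-type range on the same side, which is 16.1% of the members beside 17.5% over all nucleosomes. Between pairs of Ioc3 genotypes, 0 of 322 members were called for position (0.0% of all in each pair). For fuzziness 0 were called between Ioc3-KO and Ioc3-R739E/R742E (0.0%), Ioc3-KO and Ioc3-Q251K/D252K (0.00296%), and between the mutants (0.0118%). For peak height 0 were called in the same pairs (0.00443%, 0.0103% and 0.0133%). At an unadjusted p under 0.05 there were 7.14% to 8.7% of members for position in these pairs (7.33% to 11.5% of all), 4.66% to 8.07% for fuzziness (4.91% to 7.82%) and 4.66% to 8.7% for height (5.75% to 6.45%), by limma.

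One of the 2 position calls was in the body of PRE1, the gene of a beta subunit without catalytic activity. PRE1 lies on chromosome V from 177835 to 178431 on the Watson strand, and the nucleosome is its +4, with a consensus position of 178299 inside the coding region. Its summit lay 465, 464 and 463 bp after the start codon in wild type, at 528 bp in Ioc3-KO, at 464 bp in Ioc3-R739E/R742E and at 533 bp in Ioc3-Q251K/D252K. Ioc3-KO and Ioc3-Q251K/D252K thus lie far outside the wild-type lists, while Ioc3-R739E/R742E lies among them. The Ioc3-R739E/R742E list held another summit at 548 bp with a deposited peak height of 1.18, beside 1.19 for the one at 464 bp. No such summit was listed between 465 and 647 bp in wild type.

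The difference was 64 bp in Ioc3-KO (SE 1.73, adjusted p = 0.0335, limma over all nucleosomes) and 69 bp in Ioc3-Q251K/D252K (SE 1.73, adjusted p = 0.0732). When +4 nucleosomes alone were tested, with a depleted gap of at least 200 bp, both were called (limma, adjusted p = 0.00572 and 0.0176). In that test 1 of 10 members was called in each genotype, against 3.2% and 0.0571% of 1751 genes. For Ioc3-Q251K/D252K the share over all genes is PRE1 itself, the only gene called. The contrast of Ioc3-KO with Ioc3-R739E/R742E was 64 bp (adjusted p = 0.00766, 1.14% of genes called) and that of Ioc3-R739E/R742E with Ioc3-Q251K/D252K was -69 bp (adjusted p = 0.0355, 0.4% called). All 4 calls were lost when any 1 wild-type list was left out, at adjusted p from 0.124 to 0.555, with differences of 63.5 to 69.5 bp. Summits were matched within 70 bp of the consensus, so 64 and 69 bp are near the largest difference that can be seen. At a limit of 50 bp this nucleosome is not matched in every list and was not tested, and 0 of 64291 nucleosomes were called for position in Ioc3-KO. Without a wild-type list the fit has 1 residual degree of freedom in place of 2.

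No other measure of this nucleosome was called. Its reads were 137, 155 and 152 in wild type and 145, 147 and 160 in the Ioc3 lists, and its peak height was 0.84 to 0.90 times the list median in every list. Its fuzziness, the SD of read positions around the nucleosome, was 35.9, 36.5 and 36.9 bp in wild type and 38.9, 38.4 and 39.7 bp in the Ioc3 lists. Measured by the mean read position in place of the summit, the Ioc3-KO difference was 41.9 bp (limma, adjusted p = 0.0522). The +3 summit lay at 292 to 301 bp over the lists. After the stop codon, every list had a summit at 715 to 734 bp, and WT3 and Ioc3-R739E/R742E had another at 647 and 636 bp.

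**Figure D2:**
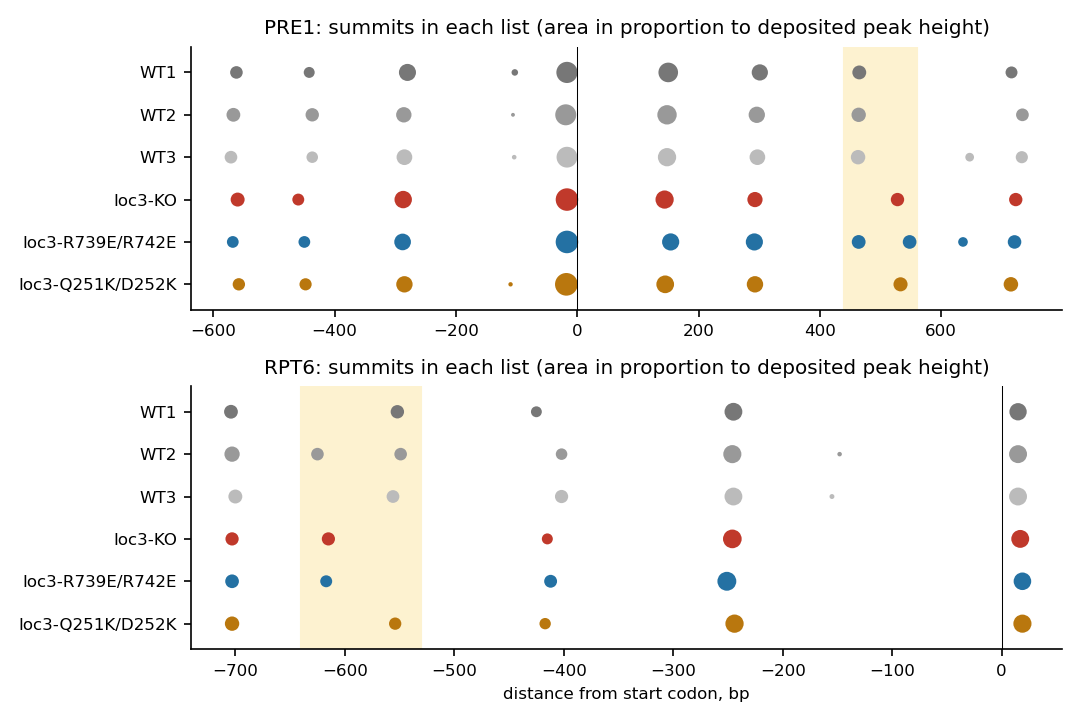
Every summit listed near PRE1 and RPT6 in the 6 lists, by distance from the start codon in bp, with 1 row per list and dot area in proportion to the deposited peak height. The shaded stretch holds the nucleosome called in each gene: in PRE1 the summits at 463 to 465 bp are replaced by 528 bp in Ioc3-KO and 533 bp in Ioc3-Q251K/D252K, and both kinds stand in Ioc3-R739E/R742E.

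The other position call in Ioc3-KO was a nucleosome upstream of RPT6, an ATPase gene of the base. RPT6 lies on chromosome VII from 410069 to 411286 on the Crick strand, and the nucleosome, at a consensus position of 411839, is inside the coding region of the divergent neighbour ALG13. Counted from the RPT6 start codon, its summit lay at -552, -549 and -556 bp in wild type, at -615 bp in Ioc3-KO, at -617 bp in Ioc3-R739E/R742E and at -554 bp in Ioc3-Q251K/D252K. WT2 also listed a summit at -625 bp, close to the place used in Ioc3-KO and Ioc3-R739E/R742E. The difference was -62.7 bp in Ioc3-KO (SE 3.57, adjusted p = 0.0386, limma) and -64.7 bp in Ioc3-R739E/R742E (SE 3.57, adjusted p = 0.0901). It was -1.67 bp in Ioc3-Q251K/D252K, and the contrast of Ioc3-KO with that mutant, -61 bp, was not called (adjusted p = 0.0719). The Ioc3-KO call was lost without any 1 wild-type list (adjusted p = 0.248 to 0.260), and at the 50 bp limit this nucleosome was not matched either.

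Reads in the 600 bp before the RPT6 start codon were 342, 354 and 410 in wild type, 240 in Ioc3-KO, 276 in Ioc3-R739E/R742E and 352 in Ioc3-Q251K/D252K. In Ioc3-KO and Ioc3-R739E/R742E that nucleosome, with 134 and 117 reads, lay just outside the 600 bp window. Their lower read sums for RPT6 therefore hold 1 nucleosome fewer, and neither was called (edgeR, adjusted p = 0.226 and 0.716).

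Most members differed from wild type by a few bp, and at +3 and +4 in Ioc3-KO their median had the opposite sign to that of all genes. This contrast of medians was not tested. With weak calls left out, the median position difference of the members at +3 was -1.50 bp in Ioc3-KO, with 21 of 32 members upstream, where 4593 genes had a median of 3.0 bp downstream. In Ioc3-R739E/R742E the medians were -1.83 bp for the members, with 25 of 32 upstream, and 1.00 bp for all genes. In Ioc3-Q251K/D252K they were 0.50 and 1.33 bp. Each wild-type list set against the other pair gave member medians of 0.0, 0.5 and -0.5 bp at +3.

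At +4 the member medians were -4.33 bp in Ioc3-KO, -3.00 bp in Ioc3-R739E/R742E and -0.67 bp in Ioc3-Q251K/D252K, where all genes had 1.67, 0.33 and 0.67 bp. At +5 they were -3.67, -2.33 and -2.0 bp, and all genes had 0.0, -0.33 and 0.0 bp. The wild-type lists themselves spread further here, with member medians of -1.0, 2.5 and -1.5 bp at +4 and -2.0, 3.5 and -1.0 bp at +5. In Ioc3-KO and in Ioc3-R739E/R742E, the +4 median is outside that range, and so is the +5 median. Those of Ioc3-Q251K/D252K are not. The numbers rest on how nucleosomes are counted: with all calls kept, 10 members had a gap of at least 200 bp, and their medians in Ioc3-KO were 0.17 bp at +3, -1.50 bp at +4 and -3.67 bp at +5. The members' +3 distances were called in 0 of 32 members in Ioc3-KO, where 2.9% of all genes were called.

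By place in the proteasome, the +3 summits of the beta ring were all upstream in Ioc3-KO. These 6 genes, the beta subunit genes with a numbered +3, had a median of -6.67 bp and a range from -13.0 to -3.33 bp. The 4 non-ATPase base genes (RPN1, RPN2, RPN10 and RPN13) were all upstream as well, with a median of -2.83 bp and a narrower range, from -4.0 to -0.33 bp. Of the 8 lid genes 6 were upstream (median -1.50 bp), of the 7 alpha ring genes 3 were (median 1.00 bp), and of the 6 ATPase genes 2 were (median 0.83 bp). At +4 in Ioc3-KO the alpha ring had 6 of 7 genes upstream, with a median of -9.67 bp. These groups are small, were not tested against each other, and use the same 3 wild-type lists.

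PRE7 and PRE2 were among the members with the larger upstream differences at +3 in Ioc3-KO. Theirs were -8.33 and -13 bp, beside a median of -1.5 bp over the members, so they are not typical. The +3 summit of PRE7, a beta subunit gene, lay at 346, 346 and 344 bp in wild type, 337 bp in Ioc3-KO, 339 bp in Ioc3-R739E/R742E and 341 bp in Ioc3-Q251K/D252K. All 3 Ioc3 values are below all wild-type values. That of PRE2 lay at 292, 289 and 295 bp in wild type, 279 bp in Ioc3-KO, and 291 and 290 bp in the mutants. Only the Ioc3-KO value leaves the wild-type range. Neither was called in Ioc3-KO (limma over all nucleosomes, adjusted p = 0.179 and 0.204).

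**Figure D3:**
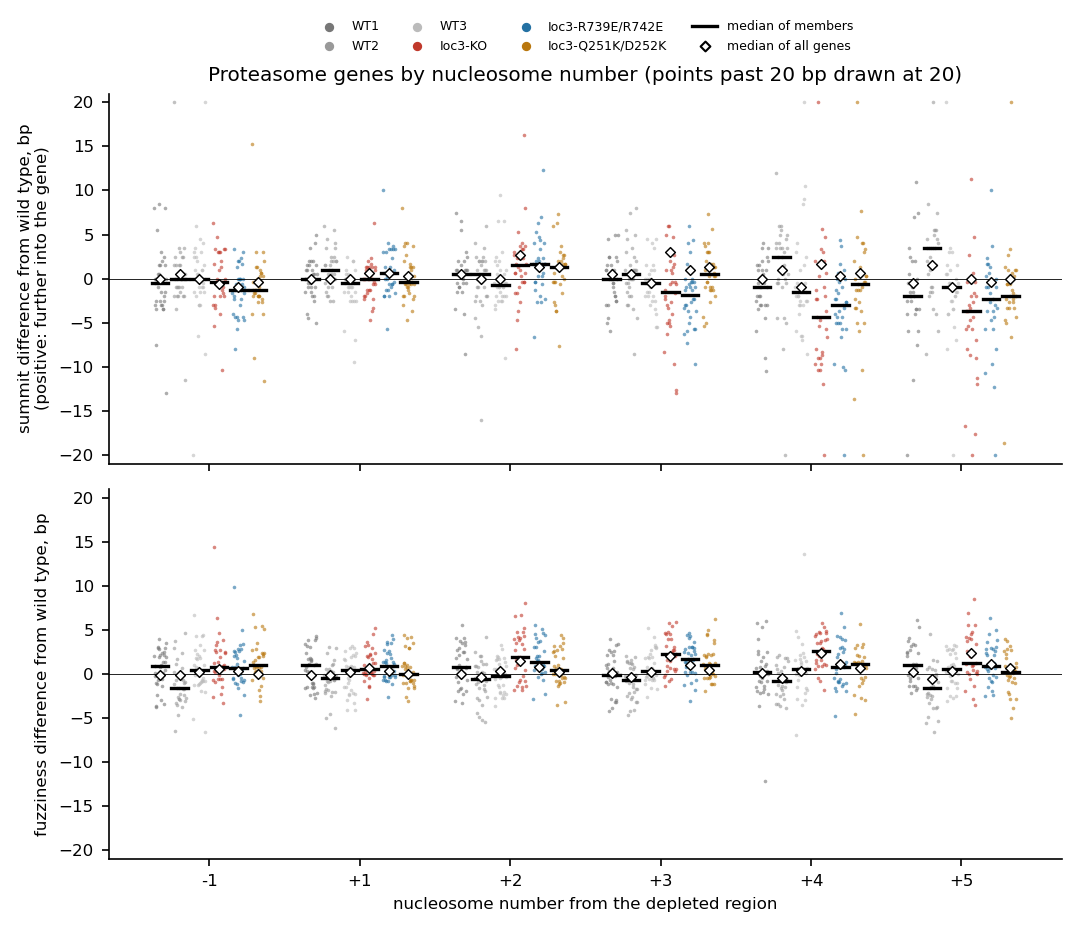
Difference of each list from wild type at nucleosomes -1 to +5, in bp, for summit position (top) and fuzziness (bottom). Each point is 1 proteasome gene, the bar is the members' median, and the diamond is the median of all genes. Weak calls are left out, points past 20 bp are drawn at 20 bp, and each wild-type list is set against the mean of the other pair. At +3 and +4 the Ioc3-KO bars lie below 0 at -1.50 and -4.33 bp, while the diamonds lie above it at 3.0 and 1.67 bp, and at +3 to +4 the fuzziness bars of Ioc3-KO lie above 0 beside their diamonds.

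Among nucleosomes whose Ioc3 lists did not overlap wild type, the 4 with the largest mean position difference were not called. RPN1, a scaffold subunit gene of the base, had a nucleosome at 1591, 1605 and 1578 bp in wild type and at 1565, 1565 and 1559 bp in the Ioc3 lists. The mean difference was -28.3 bp (SE 7.02, adjusted p = 0.317, limma). RPN2, the other scaffold subunit gene, had one at 2425, 2420 and 2417 bp in wild type and 2441, 2436 and 2445 bp in the Ioc3 lists, a difference of 20 bp (SE 3.23, adjusted p = 0.191). The +4 nucleosome of PRE6, an alpha subunit gene, spread from 458 to 504 bp in wild type and lay at 450 to 455 bp in the Ioc3 lists (adjusted p = 0.454). The weak call 129 bp before RPN9, a lid subunit gene, held 6 to 14 reads a list (adjusted p = 0.519).

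Fuzziness leaned upward in Ioc3-KO in the proteasome genes as over the genome, with no member called over all nucleosomes. The median difference from wild type was 1.52 bp over the 322 members and 1.20 bp over 67653 nucleosomes. It was 0.94 and 0.59 bp in Ioc3-R739E/R742E, and 0.55 and 0.33 bp in Ioc3-Q251K/D252K, members first. In the test over all nucleosomes 0 members were called in Ioc3-KO (0.00148% of all), 0 in Ioc3-R739E/R742E (0.0%), 0 in Ioc3-Q251K/D252K (0.0103%) and 0 for all Ioc3 lists (0.0%). At an unadjusted p under 0.05 there were 50, 25, 19 and 33 members, or 15.5%, 7.76%, 5.9% and 10.2%. Over all nucleosomes the shares were 15.5%, 7.17%, 6.55% and 11.8%. All 3 Ioc3 lists lay above wild type in 37 members (11.5%, with 13.4% over all nucleosomes) and below it in 3 (0.932%, with 4.12%). By number, the members' median rise in Ioc3-KO was 2.3 bp at +3 and 2.64 bp at +4, beside 2.10 and 2.44 bp over all genes. At +5 it was 1.20 bp, beside 2.38 bp.

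With weak calls left out and each number tested alone, 3 coding-region nucleosomes rose in fuzziness in Ioc3-KO. The +5 nucleosome of PRE6 had 34.1, 34.9 and 36.9 bp in wild type, 43.8 bp in Ioc3-KO, 37.4 bp in Ioc3-R739E/R742E and 35.4 bp in Ioc3-Q251K/D252K. The Ioc3-KO value is above all the others, and it was called against wild type (8.53 bp, SE 1.97, adjusted p = 0.00593, limma). Its differences from Ioc3-R739E/R742E and Ioc3-Q251K/D252K, 6.42 and 8.40 bp, were not called. The +5 nucleosome of RPN3, a lid subunit gene, had 24.9, 26.3 and 26.1 bp in wild type and 32.7, 29.4 and 28.6 bp in the Ioc3 lists. All 3 Ioc3 values are above wild type, and Ioc3-KO was called (6.92 bp, SE 1.95, adjusted p = 0.0218). These are 2 of 29 members at +5, where 9.03% of 3822 genes were called. Both calls held without any 1 wild-type list (limma, adjusted p = 0.00284 to 0.0103 for PRE6 and 0.0195 to 0.0435 for RPN3). In the test over all nucleosomes neither was called, with adjusted p = 0.127 for PRE6.

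PRE10, an alpha subunit gene, had 23.7, 23.6 and 26.8 bp at +3 in wild type, 30.5 bp in Ioc3-KO, 26.9 bp in Ioc3-R739E/R742E and 31.0 bp in Ioc3-Q251K/D252K. It was called in Ioc3-KO (5.85 bp, SE 1.89, adjusted p = 0.0499) as 1 of 32 members, where 6.23% of 4593 genes were. It was lost without WT1 (limma, adjusted p = 0.0809) or WT2 (0.108). The difference in Ioc3-Q251K/D252K, 6.29 bp, was larger and was not called (adjusted p = 0.303). The larger differences of all Ioc3 lists outside the wild-type range were at the -1 nucleosome of RPT2, with 11.4 to 20.2 bp in wild type and 22.6 to 30.1 bp in the Ioc3 lists (10.4 bp, SE 2.20, adjusted p = 0.245). RPT2 encodes an ATPase of the base, and this nucleosome held 18 to 34 reads a list. Next came the one at 744 bp of PRE9, an alpha subunit gene (5.43 bp, adjusted p = 0.266), and the +2 of RPT3, another ATPase gene (4.91 bp, adjusted p = 0.277). The +3 of PRE10 described above was the 4th (4.79 bp, adjusted p = 0.294).

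Peak heights leaned upward at -1 and +1, as over the genome, and this lean was not tested. With weak calls left out, 30 of 33 members were above the wild-type mean at each in Ioc3-KO (92.3% and 93.3% of all genes). There were 25 and 23 in Ioc3-R739E/R742E (77.7% and 76.5%) and 25 and 26 in Ioc3-Q251K/D252K (84.1% and 84.6%). Each wild-type list against the other pair had 20, 16 and 11 at -1 and 20, 14 and 18 at +1. Over all genes the wild-type shares were 76.21%, 31.96% and 39.05% at -1, and 76.31%, 33.14% and 38.42% at +1. Over the genome, the lean of Ioc3-R739E/R742E was thus about as large as that of WT1. The list medians used as divisors were 1.34, 1.40 and 1.40 in the Ioc3 lists and 1.44, 1.47 and 1.45 in wild type. Division by them raises the Ioc3 values relative to wild type. Heights were called in weak calls inside 2 depleted regions and at 1 nucleosome late in a gene. Before RPN11, the gene of the deubiquitinase of the lid, a weak call 152 bp upstream of the start codon (chromosome VI, 153241) had 0.113, 0.126 and 0.0890 times the list median in wild type. It had 0.258 in Ioc3-KO, 0.100 in Ioc3-R739E/R742E and 0.186 in Ioc3-Q251K/D252K. Its reads were 18, 19 and 11 in wild type and 32, 19 and 23 in the Ioc3 lists. The rise in Ioc3-KO was 1.25 on the log2 scale (SE 0.19, adjusted p = 0.0433, limma), the 1 member of 322 called there, with 0.223% of all nucleosomes called. Without WT1, WT2 or WT3, 6, 3 and 4 members were called. The share over all nucleosomes in those fits is not given here, so these counts say nothing particular about the members. On the deposited heights without scaling it was 1.13 and was not called (adjusted p = 0.0555), and at the 50 bp limit it was not matched in every list. Its summit ranged from 98 to 176 bp before the start codon over the lists.

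In Ioc3-Q251K/D252K 2 of 322 members were called for height, where 0.829% of all nucleosomes were. Without WT1 there were 4 and without WT2 there were 5, and the share over all nucleosomes in those fits is not given here. A weak call 218 bp before RPN6 (chromosome IV, 286913) had 0.0546, 0.0542 and 0.0615 times the list median in wild type, 0.0842 in Ioc3-KO, 0.0426 in Ioc3-R739E/R742E and 0.104 in Ioc3-Q251K/D252K. These heights rest on 6, 6 and 11 reads in wild type and 11, 5 and 14 reads in the Ioc3 lists. The rise in Ioc3-Q251K/D252K was 0.87 (log2, SE 0.15, adjusted p = 0.0333, limma), and on the deposited heights it was 0.81 (adjusted p = 0.0526). The nucleosome at 1255 bp in RPT1, an ATPase gene, had 1.12, 1.22 and 1.16 times the list median in wild type (chromosome XI, 175468). It had 0.855 in Ioc3-KO, 1.11 in Ioc3-R739E/R742E and 0.669 in Ioc3-Q251K/D252K, which fell by 0.80 on the log2 scale (SE 0.14, adjusted p = 0.0378). Its reads were 148, 150 and 139 in wild type and 114, 146 and 95 in the Ioc3 lists.

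**Figure D4:**
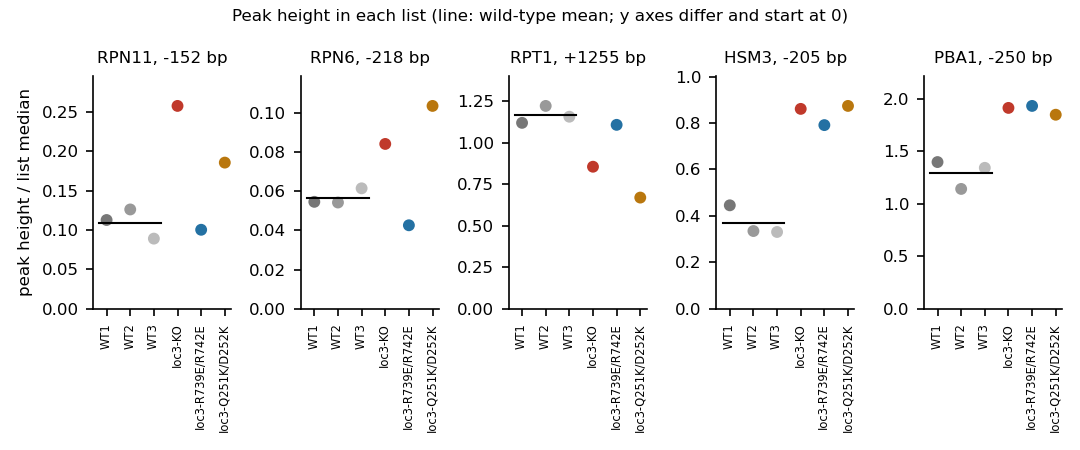
Peak height over the list median in each of the 6 lists, for 3 proteasome nucleosomes called for height and for HSM3 and PBA1, genes of assembly factors. Each point is 1 list, the line is the wild-type mean, each y axis starts at 0, and their ranges differ. RPN11 is highest in Ioc3-KO (0.258), RPN6 is highest (0.104) and RPT1 lowest (0.669) in Ioc3-Q251K/D252K, and in HSM3 and PBA1 all 3 Ioc3 lists are above wild type.

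Ioc3-R739E/R742E had 0 members called for height (0.00739% of all nucleosomes), with 21 at an unadjusted p under 0.05 (6.52%, beside 6.55%). The 3 Ioc3 lists together had 0 as well (0.479%), with 39 at an unadjusted p under 0.05 (12.1%, beside 17.2%). In Ioc3-KO and Ioc3-Q251K/D252K 49 and 25 members were under it (15.2% and 7.76%, beside 17.7% and 12.5%). All 3 Ioc3 lists were above wild type at 37 members (11.5%, with 15.0% over all nucleosomes) and below it at 25 (7.76%, with 7.03%). The largest of these were a weak call 189 bp before PRE2, with 11 to 18 reads in wild type and 16 to 30 in the Ioc3 lists (log2 0.78, SE 0.20, adjusted p = 0.0963), and a nucleosome 431 bp before PRE6. The latter had 81, 78 and 68 reads in wild type and 111, 111 and 130 in the Ioc3 lists (log2 0.64, SE 0.14, adjusted p = 0.0736, limma). In the coding regions, the nucleosome at 927 bp of RPT3 had 137, 150 and 152 reads in wild type and 99, 140 and 100 in the Ioc3 lists (log2 -0.47, adjusted p = 0.141). That at 844 bp of RPT4, an ATPase gene, had 85, 107 and 87 reads in wild type and 57, 85 and 64 in the Ioc3 lists (log2 -0.46, adjusted p = 0.126).

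No proteasome gene passed the test for summed reads. In the 600 bp before the start codon, 0 of 33 were called in Ioc3-KO (0.0% of 5996 genes), Ioc3-R739E/R742E (0.0%), Ioc3-Q251K/D252K (0.467%) or all Ioc3 lists (0.4%), by edgeR's quasi-likelihood test. At an unadjusted p under 0.05 there were 3, 1, 3 and 5 (10.4%, 6.04%, 9.59% and 11.5% of all genes), and DESeq2 also called 0 members in each. In the coding region 0 of 33 were called in the same order (0.0837%, 0.0%, 1.02% and 0.1% of 5972 genes), with 3, 1, 1 and 1 at an unadjusted p under 0.05 (12.3%, 5.84%, 9.49% and 11.1% of all genes). The median log2 differences over the members were between -0.05 and -0.01. PRE7 had the largest rise in its promoter, with 157, 171 and 141 reads in wild type, 282 in Ioc3-KO, and 171 and 184 in the mutants (log2 0.73, adjusted p = 0.248). Ioc3-KO stands above all other lists there.

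Nucleosome spacing in the coding region was called in 0 of 31 members in Ioc3-KO (1.33% of 4897 genes), Ioc3-R739E/R742E (0.0%), Ioc3-Q251K/D252K (0.0%) and all Ioc3 lists (0.123%), by limma. At an unadjusted p under 0.05 there were 7, 3, 3 and 3 members (22.6%, 9.68%, 9.68% and 9.68%). Over all genes the shares were 19.5%, 10.2%, 9.84% and 13.9%. The median difference in Ioc3-KO was -0.86 bp over the members and -0.53 bp over all genes. RPT1 had the smallest p among the members in Ioc3-KO, at 163.0, 163.1 and 162.1 bp in wild type, 158.3 bp in Ioc3-KO and a difference of -4.48 bp (SE 0.60, adjusted p = 0.0953).

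Of the genes that build and regulate the proteasome, 15 were examined beside the subunits. They had 182 nucleosomes tested, of which 0 were called for position and 0 for fuzziness in every comparison. For height, the Ioc3-KO list had 1 of the 182 called, the Ioc3-Q251K/D252K list had 1, and all Ioc3 lists as 1 group had 2 (0.223%, 0.829% and 0.479% of all nucleosomes). HSM3 encodes a chaperone that binds the ATPase Rpt1 during assembly of the base. The nucleosome 205 bp before its start codon (chromosome II, 748008) had 0.445, 0.335 and 0.331 times the list median in wild type, 0.861 in Ioc3-KO, 0.791 in Ioc3-R739E/R742E and 0.874 in Ioc3-Q251K/D252K. All 3 Ioc3 lists lie well above wild type, with 113, 99 and 123 reads against 80, 52 and 50. The rise was 1.23 (log2, SE 0.19, adjusted p = 0.0433) in Ioc3-KO and 1.25 (adjusted p = 0.0232) in Ioc3-Q251K/D252K. It was 1.20 with all Ioc3 lists (SE 0.13, adjusted p = 0.00709, limma), while Ioc3-R739E/R742E alone, at 1.11, was not called (adjusted p = 0.162).

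PBA1, the gene of a chaperone of alpha ring assembly, had 1.40, 1.14 and 1.34 times the list median at 250 bp before its start codon in wild type, and 1.91, 1.93 and 1.85 in the Ioc3 lists. The rise over all Ioc3 lists was 0.56 (log2, SE 0.11, adjusted p = 0.0470, limma), and it was lost without WT2 (adjusted p = 0.166) or WT3 (0.136). The nucleosomes described in HSM3 and PBA1 are the -1 of their genes. At -1 the median height difference over all genes was also a rise. It was 0.25 in Ioc3-KO, 0.11 in Ioc3-R739E/R742E and 0.18 in Ioc3-Q251K/D252K on the log2 scale. WT1, WT2 and WT3, each against the other pair, had 0.12, -0.07 and -0.04, so the Ioc3-R739E/R742E value is within the wild-type range. The lower list medians of the Ioc3 lists, by which heights are divided, add to their values. RPN4, the gene of the transcription factor, had a depleted region of 357, 350 and 351 bp in wild type and 352, 351 and 350 bp in the Ioc3 lists. Its promoter held 417, 401 and 376 reads in wild type, 397 in Ioc3-KO, 338 in Ioc3-R739E/R742E and 413 in Ioc3-Q251K/D252K (edgeR, adjusted p = 0.51 for all Ioc3 lists). UMP1, the gene of a maturation factor of the core particle, had a width of 260, 267 and 262 bp in wild type and 263, 265 and 261 bp in the Ioc3 lists. For PRE1 the widths were 263, 267 and 268 bp, and 270, 271 and 267 bp. The Ioc3 values of all 3 genes lie within 3 bp of the wild-type range.

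Of 18 genes that tag or handle ubiquitinated proteins, 4 of 308 nucleosomes were called for position in Ioc3-KO, where 1.28% of all nucleosomes were. They are at 5086 bp in UBR2 (59.7 bp, SE 2.42, adjusted p = 0.0340) and 2645 bp in UBR1 (-53.3 bp, SE 2.75, adjusted p = 0.0367), both ubiquitin ligase genes. The others are at 2588 bp in HUL5, a ligase gene (55 bp, adjusted p = 0.0386), and 675 bp in UBI4, the polyubiquitin gene (-31.7 bp, adjusted p = 0.0387, limma). UBI4 is a run of near-identical repeats, so how reads were assigned within it is uncertain. Ubr2 targets Rpn4 for degradation, and the UBR2 nucleosome lay at 5088, 5084 and 5087 bp in wild type, 5146 bp in Ioc3-KO, and 5088 and 5084 bp in the mutants. These calls, like those of PRE1 and RPT6, were lost without any 1 wild-type list (adjusted p = 0.248 to 0.260). At the 50 bp limit UBI4 was not called (adjusted p = 0.0733), and the other 3 were not matched in every list. The promoter of NPL4, a gene of a cofactor of the segregase Cdc48, held 322, 303 and 334 reads in wild type, 515 in Ioc3-KO, 531 in Ioc3-R739E/R742E and 505 in Ioc3-Q251K/D252K. All Ioc3 lists are above all wild-type lists (log2 0.61, adjusted p = 0.0197, edgeR), the 1 promoter of 18 called, where 0.4% of all were. Without 1 wild-type list it was not (edgeR, adjusted p = 0.0501 to 0.0985). The +1 summit of NPL4 lay at 0, 2 and 0 bp from the start codon in wild type and at -1, -1 and -2 bp in the Ioc3 lists. The promoter sums of the Ioc3 lists therefore hold this +1 nucleosome, which wild type counts in the coding region. Reads in the coding region were 1587, 1424 and 1604 in wild type and 1350, 1376 and 1319 in the Ioc3 lists.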

How the data were processed

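MNase-seq was done on 12 samples, in 6 groups of 2 replicates. Reads were handled with Trimmomatic, Bowtie2 and SAMtools on sacCer3, per the submitters' processing notes. The position caller is not given in the sources used here. Each deposited list pools both replicates and gives, per nucleosome, a summit coordinate, a fuzziness score in bp, a peak height signal of unstated scale and a whole-number read count, per the file headers. The total counts of a list, 10282804 to 10350515, limit the precision: a typical nucleosome rests on about 133 to 139 reads. Whether these counts were scaled before deposit is not given in the sources used here.

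Summits of the 6 lists were smoothed (SD 20 bp) into consensus nucleosomes at least 100 bp apart. A summit matched within 70 bp, and 67654 of 72735 (93.0%) were matched in every list. Strand came from the systematic gene name, and positions refer to the start codon, since transcript ends were not used here. Numbers follow the widest gap of at least 200 bp whose middle lies between -400 and 50 bp relative to the start codon, with steps of at most 220 bp. Of all genes, 35.0% had such a gap with every call kept, 84.0% with calls under 25% of the median height left out.

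Position, fuzziness and log2 height over the list median were tested with limma 3.58.1 across all matched nucleosomes, and by number. Each Ioc3 list was set against WT1, WT2 and WT3 and was assumed to vary like them. Read counts per promoter or coding region were tested with edgeR 4.0.16 (quasi-likelihood, TMM, R 4.3.3), with DESeq2 1.42.0 as an alternative. Adjusted p-values are Benjamini-Hochberg over all features, with a threshold of 0.05. The procedures were tested on simulated data. The members and gene lists were chosen with earlier results of these data known. Named are all called members, the 4 largest differences without overlap per measure, the 3 widest and 3 narrowest depleted regions, PRE1, RPN4, UMP1 and IOC3, and the called genes of the assembly and ubiquitin lists. PRE7 and PRE2 at +3, the extremes of spacing, and the promoter of PRE7 were named after their values were seen. Promoter motifs were not searched, because no sequence was used here.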

Additional observations from a re-analysis of the deposited data

Results flagged for a closer look

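The +4 nucleosome of PRE1 stood out because contrasts between Ioc3 genotypes were called there. Its summit lay 64 bp further downstream in Ioc3-KO than in Ioc3-R739E/R742E (limma over +4 nucleosomes, adjusted p = 0.00766, and 0.0168 with weak calls left out). The difference of Ioc3-R739E/R742E from Ioc3-Q251K/D252K was -69 bp (limma, adjusted p = 0.0355, and 0.0441 with weak calls left out). In the test over all nucleosomes these contrasts had adjusted p = 0.0558 and 0.102 (limma). Each contrast sets 1 list against 1 list, so its p-value measures the spread between the wild-type lists only. The spread within either genotype was not measured. With a depleted gap of at least 200 bp, both calls were lost when any 1 wild-type list was left out. The Ioc3-R739E/R742E list holds summits at both 464 and 548 bp, with deposited peak heights of 1.19 and 1.18, so its place in this contrast depends on which is matched.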

How the results depend on the processing

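No paired analysis was possible because each deposited list pools both replicates. Of 394 alternative values for counts and medians of the members, 318 were scored as unchanged. A count was scored so if equal to the main count or of similar size, which includes every count of 0 that stayed 0. A median was scored so if it moved by less than the SD of the wild-type medians. The share is therefore no measure of how firm the calls are. The members called for position in Ioc3-KO, 2 in all, became 0 at a matching limit of 50 bp, where PRE1 and RPT6 are not matched in every list, 0 with the mean read position and 1 without the lowest 25% of peak heights, and 0 without any 1 wild-type list. With all Ioc3 lists the position count was 0, and 0 to 2 leaving out 1 list. For fuzziness in Ioc3-KO, 0 became 5 without the lowest 25% and 0 to 2 leaving out 1 list. For height in Ioc3-KO, 1 became 0 at 50 bp, 0 on heights as deposited, 4 with limma's robust setting, 5 without the lowest 25%, and 3 to 6 leaving out 1 list. For height in Ioc3-R739E/R742E, 0 became 0 to 2 leaving out 1 list. In Ioc3-Q251K/D252K, 2 became 1 on heights as deposited and 2 to 5 leaving out 1 list. With all Ioc3 lists, 0 became 1 (robust), 2 (without the lowest 25%) and 0 to 3 (leaving out 1 list). Between genotypes, the height count of 0 became 0 to 1 for Ioc3-KO with Ioc3-R739E/R742E leaving out 1 list. It became 1 (robust) and 1 to 2 (leaving out 1 list) for Ioc3-KO with Ioc3-Q251K/D252K. It became 3 (robust), 1 (without the lowest 25%) and 1 to 3 (leaving out 1 list) for Ioc3-R739E/R742E with Ioc3-Q251K/D252K. By number, the position count of 1 became 0 in Ioc3-KO and in Ioc3-Q251K/D252K leaving out 1 list. The fuzziness count in Ioc3-KO was 0, 3 with weak calls left out, and 0 to 5 leaving out 1 wild-type list, and in Ioc3-R739E/R742E 0 to 1. For most of these alternative counts the share over all nucleosomes or genes is not given here. Whether a change in count is particular to the members therefore cannot be told from them.

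Median position differences moved with the numbering. With weak calls left out, Ioc3-KO went from 0.17 to -1.50 bp at +3 and from -1.50 to -4.33 bp at +4. Ioc3-R739E/R742E went from 0.0 to -1.83 bp at +3 and from -1.67 to -3.00 bp at +4. Leaving out 1 wild-type list, over both numberings, gave -1.75 to 0.75 bp at +3, -5.0 to -0.75 bp at +4 and -5.0 to -2.0 bp at +5 in Ioc3-KO. Those without WT2 at +3 and without WT1 at +4, with weak calls left out, were -1.25 and -4.5 bp, and with every call kept +4 without WT1 was -2.75 bp. In Ioc3-R739E/R742E it gave -2.25 to 0.50, -3.5 to -1.0 and -3.5 to -0.50 bp, and in Ioc3-Q251K/D252K -0.50 to 1.75 bp at +3. The joint change of numbering and list was chosen after seeing the data. The cause of these changes was not tested, apart from the fewer lists in a fit. The fuzziness difference of the RPN3 +5 nucleosome was -0.45 bp in Ioc3-KO with a gap of at least 150 bp, where the number refers to another nucleosome. Of single named results, 65 of 284 values lost their call and 3 gained one. The called weak calls of RPN6 and RPN11 rest on 5 to 32 reads. A motif search was not run.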
